A study of Mus musculus with 8 samples.

Results

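The miR-155 and miR-146 families were followed in 8 small RNA libraries of mouse bone marrow-derived macrophages (BMDMs). They were chosen by name as the 5p and 3p arms of miR-155, miR-146a and miR-146b, which are 6 of the 1063 mature miRNA features, and of the 3514 features of any kind, that the deposited tables listed. All 6 were listed in at least 1 table. The Ion Proton table held 4 of them, the SOLiD table held 5, and both tables held the 5p arms of miR-155, miR-146a and miR-146b. The cells were BMDMs from male C57BL/6J mice of 10 weeks, differentiated in medium conditioned by L929 cells, and no group carried an engineered allele. Control cells received no treatment, and the treated cells were kept for 36 h without M-CSF (Macrophage-Colony Stimulating Factor, on which these cells depend for survival), which induces apoptosis. The Ion Proton run had 2 control and 2 M-CSF withdrawal libraries, named biological replicates in the methods. In the SOLiD run each condition had 1 total RNA library and 1 library of RNA size-selected for 25 to 40 nt, without replicates.

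miR-155 and miR-146 are textbook miRNAs of innate immunity. In macrophages, signals through Toll-like receptors and NF-κB raise the transcription of both. miR-155-5p is cut from the transcript of the B-cell integration cluster gene (Mir155hg) and is known to repress negative regulators of inflammatory signalling such as Socs1 and Inpp5d (SHIP1). In turn, miR-146a-5p and miR-146b-5p are known to repress Traf6 and Irak1, which carry the signal of Toll-like receptors inside the cell. Of each hairpin 1 arm, here the 5p arm, is usually kept in the silencing complex, and the other arm is mostly degraded.

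The mature sequences are shown because the miR-146 5p arms share their seed, so that only the few bases by which these arms differ can tell their reads apart. They were taken from RefSeq (mouse assembly GRCm38.p6), which matched all 6 names, and capitals mark the seed, bases 2 to 8 from the 5′ end.
mmu-miR-155-5p: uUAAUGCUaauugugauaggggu
mmu-miR-155-3p: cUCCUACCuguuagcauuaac
mmu-miR-146a-5p: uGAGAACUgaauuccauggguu
mmu-miR-146a-3p: cCUGUGAAauucaguucuucag
mmu-miR-146b-5p: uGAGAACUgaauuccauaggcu
mmu-miR-146b-3p: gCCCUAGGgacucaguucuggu

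Of 864 mature miRNAs searched, only miR-146a-5p and miR-146b-5p held the seed GAGAACU, and each of the other 4 seeds was held by 1 miRNA. Counted from the 5′ end of miR-146a-5p, miR-146b-5p differed from it at G18A and U21C, so that 20 of 22 bases were the same and the first 17 bases were shared. A read that ends within these 17 bases has no base that tells the arms apart. The Ion Proton reads were aligned in local mode, and how well longer reads were assigned to the right arm was not tested. The 3p arms of the 2 hairpins, laid side by side without gaps, had 4 of 22 bases in common.

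The 3 hairpins are shown to give the place of each arm, which is in capitals, 5p arm first. The coordinates are those of GRCm38.
Mir155 at chr16:84714140-84714204, plus strand: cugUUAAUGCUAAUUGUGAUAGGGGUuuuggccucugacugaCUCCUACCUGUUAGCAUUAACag
Mir146 (miR-146a) at chr11:43374397-43374461, minus strand: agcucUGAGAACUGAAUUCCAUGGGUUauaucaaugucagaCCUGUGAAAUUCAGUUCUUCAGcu
Mir146b at chr19:46342762-46342870, plus strand: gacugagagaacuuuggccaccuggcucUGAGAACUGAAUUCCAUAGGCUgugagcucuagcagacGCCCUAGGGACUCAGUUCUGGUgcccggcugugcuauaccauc

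The Mir155 hairpin lies in exon 2 of Mir155hg, a long non-coding RNA gene. The Mir146b hairpin lies inside a transcript of the protein-coding gene Mfsd13a and outside its exons, thus in an intron, and the Mir146 hairpin overlaps no other gene of the annotation. The hairpins themselves were listed as separate features, with 0 to 79 reads per library.

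Depth was 6053130 to 7760142 reads on listed features in the Ion Proton libraries and 4039837 to 12178454 in the SOLiD libraries. The composition of the libraries differed between the conditions. In the Ion Proton run mature miRNAs took 40.6% ± 0.878 of these reads (SD, n = 2) in control cells, and withdrawal of M-CSF brought this to 29.7% ± 0.272 (SD, n = 2). In the SOLiD run this share was 82.0% against 41.1% in total RNA and 87.2% against 45.0% in size-selected RNA. Levels are therefore given on 2 scales, per 1000000 reads on listed features (CPM in the Ion Proton run, RPM in the SOLiD run) and per 1000000 reads on mature miRNAs. The RNA integrity number was 8.4 to 8.9 in the Ion Proton run, 8.4 (control) and 7.5 (M-CSF withdrawal) for the SOLiD total RNA, and for the size-selected RNA it was 2.7 and 2.6. Its part in the results was not tested.

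The label BMDM was checked against marker miRNAs. All 6 miRNAs of the myeloid and blood-cell list were above 0 in each Ion Proton library, with a summed level of 1257 to 1821 CPM, and 4 of them were listed in the SOLiD run, with 6801 to 17388 RPM. Markers of other tissues were near 0 in the Ion Proton run and not in the SOLiD run. The 5 epithelial miRNAs of the miR-200 family summed to 8.59 to 12.4 CPM in the Ion Proton libraries and to 3630 to 5224 RPM in the SOLiD libraries, where miR-200b-3p led with 1430 to 2060 RPM. The 3 erythroid miRNAs summed to 5.99 to 13.7 CPM and to 2417 to 4025 RPM, and miR-122-5p of liver had 0 to 0.165 CPM and 52.7 to 89.6 RPM. The lymphocyte marker miR-150-5p had 0 to 1.81 CPM and 407 to 601 RPM. The stromal list summed to 12.7 to 23.3 CPM from 2 listed members and to 134 to 185 RPM from 5, and the endothelial list to 0.826 to 1.99 CPM and 37.6 to 49.3 RPM. None of the 3 muscle miRNAs was listed in the Ion Proton table, and 2 summed to 224 to 421 RPM in the SOLiD run. The SOLiD libraries thus held miRNAs that BMDMs should lack, and the part of this RNA in the SOLiD values below was not tested. The Ion Proton values stand without those libraries.

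miR-146a-5p ranked between 5 and 15 among the mature miRNAs of each library. miR-146b-5p ranked 8 to 12 in the Ion Proton run and 28 to 48 in the SOLiD run, and miR-155-5p had fewer reads than both in every library, at ranks 58 to 96. In the Ion Proton control libraries miR-146b-5p had 16019 and 17972 CPM, and miR-146a-5p had 8577 and 9638 CPM. There, miR-155-5p had 198 and 177 CPM. Among 737 mature miRNAs these levels placed miR-146b-5p 8th, miR-146a-5p 15th and miR-155-5p 76th and 78th. As group levels, the order of control cells was miR-146b-5p with 16996 ± 1381 CPM (SD, n = 2), miR-146a-5p with 9107 ± 750.3 CPM (SD, n = 2) and miR-155-5p with 187 ± 14.8 CPM (SD, n = 2), with gaps wider than these spreads.

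After M-CSF withdrawal the order in the Ion Proton run held, with the miR-146 arms closer to each other. miR-146b-5p had 8241 ± 109 CPM (SD, n = 2), miR-146a-5p 7605 ± 238 CPM (SD, n = 2) and miR-155-5p 210.0 ± 17.5 CPM (SD, n = 2). miR-146b-5p now ranked 12th and miR-146a-5p 13th in both libraries, and miR-155-5p ranked 66th and 69th.

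In the SOLiD run the order of the miR-146 arms was the other way round. miR-146a-5p had 13197 RPM (95% Wilson interval 13104 to 13290) in the control library of total RNA, and miR-146b-5p had 1788 RPM (1754 to 1822). miR-155-5p had 361 RPM (346 to 377) there. Among 893 mature miRNAs the ranks were 8, 44 and 96. Wilson intervals cover counting error only. The runs differ in library kit, sequencer, mapping and quantity of RNA, and these cannot be told apart.

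**Figure D1:**
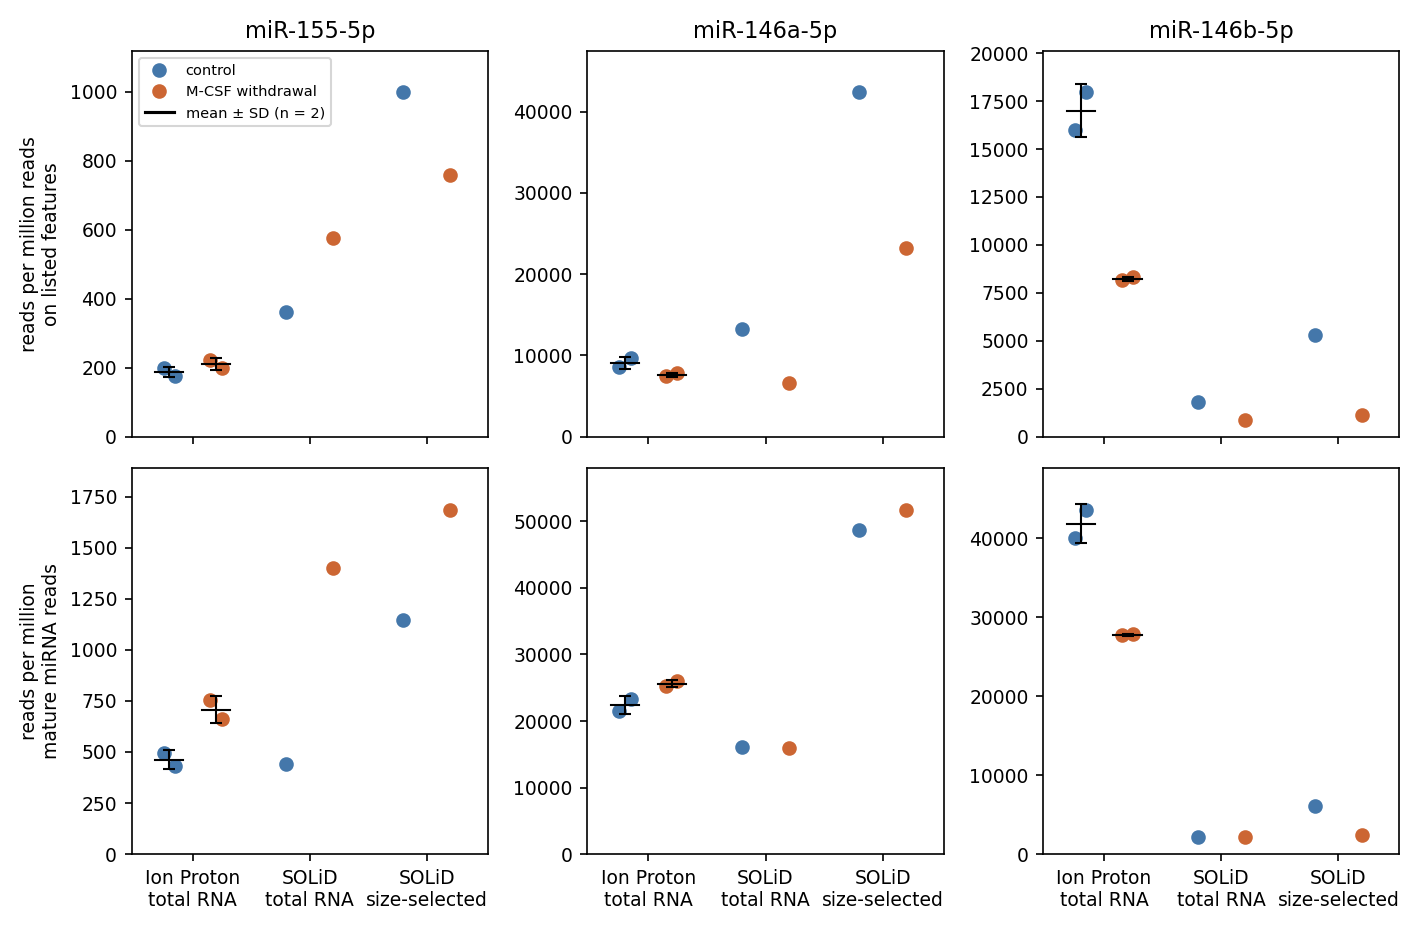
Levels of miR-155-5p, miR-146a-5p and miR-146b-5p in the 8 libraries, per 1000000 reads on listed features (upper panels) and per 1000000 mature miRNA reads (lower panels), on linear axes from 0. Each point is 1 library, and black lines are the mean ± SD of the 2 Ion Proton libraries of a condition. miR-146b-5p was lower in both Ion Proton M-CSF withdrawal libraries than in both control libraries on either scale, while the direction for miR-146a-5p depended on the scale.

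miR-146b-5p fell after M-CSF withdrawal. Its CPM went from 16019 and 17972 in the Ion Proton control libraries to 8164 and 8318 in the M-CSF withdrawal libraries, a ratio of means of 0.485. All 4 pairings of a withdrawal with a control library had a log2 ratio between -1.14 and -0.95. Full separation of 2 libraries from 2, here and below, has an exact two-sided permutation p of 0.333. The share of all features so separated was not counted. The quasi-likelihood test of edgeR over 2029 features gave a log2 fold change of -0.99 (standard error 0.0822, Benjamini-Hochberg adjusted p = 0.00293). In that test 8.97% of all features were called lower and 15.7% higher, and among the 600 mature miRNAs tested 13.3% were called lower and 1.33% higher. The median log2 fold change was -0.39 over these miRNAs and 0.08 over all features. Of the 186 mature miRNAs with a mean of at least 10 CPM, only 7 had a lower log2 fold change than miR-146b-5p. In bulk RNA, fewer cells that hold a miRNA and less of it per cell cannot be told apart.

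Scaled to mature miRNA reads, miR-146b-5p still fell in the Ion Proton run. It had 40054 and 43584 per 1000000 miRNA reads in control cells and 27681 and 27842 after withdrawal. With TMM factors computed over mature miRNAs, which moved the median of all features by edgeR from 0.08 to 0.46, its log2 fold change was -0.61 (adjusted p = 0.00457). Under that scaling 0.986% of features were called lower and 20.7% higher. Among the 600 mature miRNAs tested, 12 were called lower and 20 higher. Without each of the 4 libraries in turn, the log2 fold change was -1.18 to -0.90 under the first scaling, with an edgeR adjusted p of at most 0.00889.

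miR-146a-5p did not pass the test on either scale, and the sign of its change depended on the scale. It had 8577 and 9638 CPM in the control libraries and 7436 and 7773 CPM after withdrawal, lower in all 4 pairings. Per 1000000 miRNA reads it had 21445 and 23372 in control cells and 25214 and 26018 after withdrawal, higher in all 4 pairings. edgeR gave a log2 fold change of -0.21 (standard error 0.0870, adjusted p = 0.180), and of 0.18 with miRNA scaling (adjusted p = 0.148). Without control replicate 1 the edgeR value was -0.40 (adjusted p = 0.0304), a fit in which 13.1% of features were called lower, and DESeq2 gave -0.33 (adjusted p = 0.0247), with 11.7% called lower. The call for miR-146a-5p thus rests on these choices.

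miR-155-5p did not pass the test under all-feature scaling. It had 198 and 177 CPM in control libraries of the Ion Proton run and 222 and 198 CPM after withdrawal, so that the groups touched. edgeR gave it a log2 fold change of 0.22 (standard error 0.101, adjusted p = 0.221). Per 1000000 miRNA reads it had 495 and 429 in control cells and 754 and 661 after withdrawal, a ratio of means of 1.53. With TMM factors over mature miRNAs it was called higher by edgeR, with a log2 fold change of 0.60 (adjusted p = 0.0385). Under that scaling 20.7% of all features were called higher, with a median of 0.46 over all features. Among the 600 mature miRNAs tested, 20 were called higher and the median was -0.01. Of the 186 mature miRNAs with at least 10 CPM, 16 had a higher log2 fold change than miR-155-5p.

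**Figure D2:**
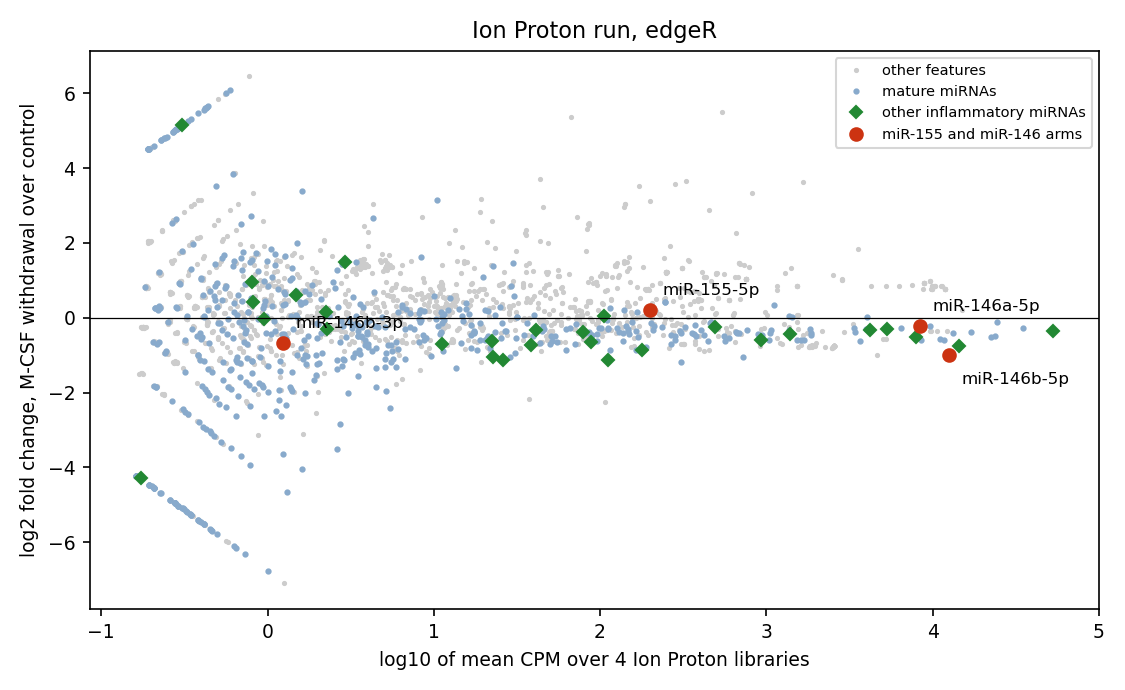
Log2 fold change after M-CSF withdrawal (edgeR, vertical axis) against log10 of the mean CPM over the 4 Ion Proton libraries (horizontal axis), for the 2029 features tested. miR-146b-5p lies at -0.99, below the miRNA median of -0.39, miR-155-5p at 0.22 lies above it, and miR-146b-3p at the left has under 25 reads per library.

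In the SOLiD total RNA libraries, which have no replicates, both miR-146 arms were lower after withdrawal and miR-155-5p was higher. miR-146a-5p went from 13197 to 6550 RPM and miR-146b-5p from 1788 to 886 RPM, log2 ratios of -1.01 each. miR-155-5p went from 361 to 575 RPM, a log2 ratio of 0.67 (counting interval 0.60 to 0.74). The median log2 ratio was -0.73 over the 258 mature miRNAs with at least 10 RPM in both libraries and 0.44 over all 978 such features. Of these 258 miRNAs, 251 had a lower ratio than miR-155-5p, 86 a lower ratio than miR-146a-5p and 85 a lower ratio than miR-146b-5p. Per 1000000 miRNA reads, the miR-146 arms were nearly level between the libraries, at 16093 and 15920 for miR-146a-5p and at 2180 and 2154 for miR-146b-5p, and miR-155-5p went from 440.2 to 1398.

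With the 6 total RNA libraries of both runs in 1 limma model with run as a term, miR-146b-5p was called lower, with a log2 fold change of -1.03 (standard error 0.112, adjusted p = 0.00638), on the log2 scale of CPM or RPM plus 1. The share of the 1701 features called lower was 5.70%, and 11.6% were called higher. Among the 443 mature miRNAs tested, 43 were called lower and 1 higher. miR-146a-5p had -0.51 (standard error 0.181, adjusted p = 0.109 by limma) and miR-155-5p had 0.33 (standard error 0.186, adjusted p = 0.254 by limma). Without either SOLiD library these values were -0.26 and 0.16. Scaled to miRNA reads, which moved the median of all features from 0.17 to 0.69, miR-146b-5p had -0.40 (adjusted p = 0.197 by limma), miR-146a-5p 0.12 and miR-155-5p 0.96 (adjusted p = 0.0676 by limma). None of the 3 was called there, where 17.8% of features were. Of the 443 mature miRNAs, 9 were called higher and 1 lower in that fit. The call for miR-146b-5p in both runs was also lost without Ion Proton control replicate 2, M-CSF withdrawal replicate 1 or M-CSF withdrawal replicate 2. Its log2 fold changes there were -0.98, -1.02 and -1.04. These fits called few features of any kind, as given below, so that the loss was not particular to miR-146b-5p.

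The effect of withdrawal was compared between the runs by the treatment by run term of limma, in which the lone SOLiD libraries were assumed to vary like the Ion Proton ones. The term, the change in the SOLiD run minus that in the Ion Proton run, was -0.75 on the log2 scale for miR-146a-5p (standard error 0.143, limma adjusted p = 0.0214), while 26.0% of all features were called. It was 0.03 for miR-146b-5p (adjusted p = 0.889 by limma) and 0.51 for miR-155-5p (adjusted p = 0.108 by limma). Of the 443 mature miRNAs tested, 6 were called with a term above 0 and 51 with a term below 0. Scaled to miRNA reads the pattern changed. The term was then -0.21 for miR-146a-5p (adjusted p = 0.266 by limma), 0.57 for miR-146b-5p (adjusted p = 0.0207 by limma) and 1.05 for miR-155-5p (adjusted p = 0.0174 by limma), with 35.3% of features called. Of the 443 mature miRNAs, 39 were then called above 0 and 16 below 0.

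**Figure D3:**
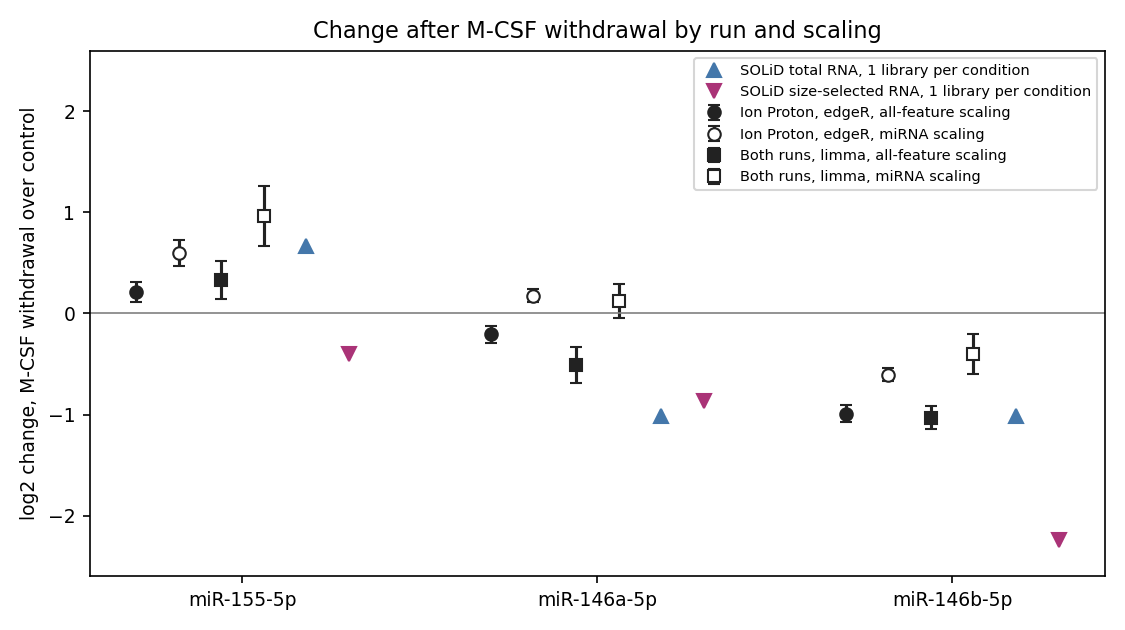
Log2 change after M-CSF withdrawal for the 3 abundant arms. Circles are edgeR fits of the Ion Proton run and squares are limma fits of both runs, with bars of 1 standard error, filled for all-feature and open for miRNA scaling, and triangles are single SOLiD library pairs without error. miR-146b-5p lies below 0 in all 6 values, miR-146a-5p lies on either side of 0, and miR-155-5p lies below 0 only in size-selected RNA.

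The ratio of the 2 miR-146 5p arms does not depend on the scaling of a library. It does depend on how reads were assigned to the arms, which was not tested. In the Ion Proton run miR-146a-5p had 0.535 and 0.536 reads per read of miR-146b-5p in control cells, and 0.911 and 0.935 after withdrawal. As a share of the reads of both arms this was 34.9% ± 0.0257 (SD, n = 2) and 48.0% ± 0.452 (SD, n = 2). The log2 ratio rose by 0.78, which was larger than the spread between replicates, and the exact two-sided permutation test gave p = 0.333, the smallest p that 2 libraries against 2 allow. In the SOLiD total RNA libraries the ratio was 7.38 in control cells and 7.39 after withdrawal, with shares of 88.1% (95% Wilson interval 87.9 to 88.3) in both. In size-selected RNA it was 8.04 and 20.9. The ratio was thus higher after withdrawal in the Ion Proton run and in the size-selected libraries, and level in the SOLiD total RNA libraries.

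**Figure D4:**
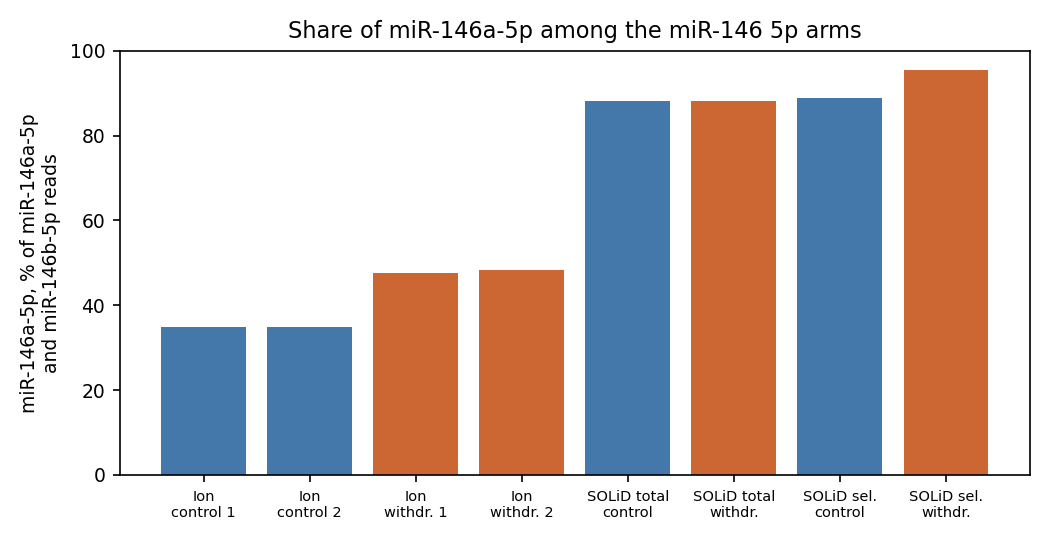
Share of miR-146a-5p among the reads of miR-146a-5p and miR-146b-5p, in percent, in each of the 8 libraries (blue control, orange M-CSF withdrawal). The share was 34.9% in both Ion Proton control libraries and 47.7% and 48.3% after withdrawal, and 88.1% or more in the 4 SOLiD libraries.

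As a seed family, the miR-146 5p arms held 6.42% ± 0.386 (SD, n = 2) of the miRNA reads in Ion Proton control cells and 5.34% ± 0.0682 (SD, n = 2) after withdrawal. Their summed level went from 26103 ± 2131 CPM (SD, n = 2) to 15846 ± 348 CPM (SD, n = 2). In the SOLiD total RNA libraries the family held 1.83% and 1.81% of the miRNA reads. The miR-146 5p reads per read of miR-155-5p, also free of scaling, were 124 and 156 in control cells of the Ion Proton run and 70.2 and 81.4 after withdrawal. The log2 of this ratio fell by 0.88, again with an exact two-sided permutation p = 0.333. In the SOLiD total RNA libraries it went from 41.5 to 12.9, and in size-selected RNA from 47.7 to 32.2. Each of these comparisons had fewer miR-146 reads per read of miR-155-5p after withdrawal.

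The 3p arms were close to the limit of detection. miR-146b-3p, listed in the Ion Proton table only, had 24 and 0 reads in the control libraries and 9 and 3 after withdrawal, at most 0.0193% of the reads of both miR-146b arms. The count of 0 allows up to 0.418 CPM, by a limit of 3 counts. edgeR gave it a log2 fold change of -0.66 (standard error 1.64, adjusted p = 0.818), and the 2 control libraries alone spanned the range of the others. For the ratio of 5p to 3p reads, limma called 0 of 138 miRNAs, with 10 at an unadjusted p under 0.05, and miR-146b had a log2 change of -1.63 (standard error 1.92, adjusted p = 0.938).

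In the SOLiD run miR-146a-3p had 9 reads in the control library of total RNA and 1 after withdrawal, and 25 and 2 in size-selected RNA. The 5p arm in the same libraries had 76178, 79771, 378016 and 94032 reads. miR-155-3p had 0, 9, 2 and 3 reads in the same order, against 2084, 7006, 8903 and 3063 of miR-155-5p. The 0 allows up to 0.5197 RPM. The log2 ratio of withdrawal to control RPM for miR-146a-3p was -4.25 in total RNA (counting interval -6.86 to -1.64) and -2.50 in size-selected RNA (-4.43 to -0.57). Both intervals lie below 0, but they cover counting error only, and no spread between libraries was measured for this arm. For miR-155-3p in size-selected RNA it was 1.73 (-0.60 to 4.05).

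Size selection for 25 to 40 nt, a range above the 21 to 23 bases of these arms, did not remove them. In control cells all 3 abundant arms had more RPM in size-selected than in total RNA. The log2 ratio of size-selected to total RNA was 1.47 for miR-155-5p, 1.68 for miR-146a-5p and 1.56 for miR-146b-5p, against a median of -0.08 over the 282 mature miRNAs with at least 10 RPM. After withdrawal it was 0.40, 1.83 and 0.33, against a miRNA median of 0.43 over 245. miR-146a-5p stayed high on this scale in both conditions, whereas miR-155-5p and miR-146b-5p did not.

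Within size-selected RNA, miR-155-5p went from 999 to 758 RPM after withdrawal, a log2 ratio of -0.40, and from 1145 to 1686 per 1000000 miRNA reads. miR-146a-5p went from 42421 to 23276 RPM, a log2 ratio of -0.87, and from 48635 to 51748 per 1000000 miRNA reads. miR-146b-5p went from 5274 to 1112 RPM, a log2 ratio of -2.25, and from 6046 to 2473 per 1000000 miRNA reads. It was lower on both scales, and only 6 of the 262 mature miRNAs with at least 10 RPM had a lower ratio. Of these 262, 125 had a lower ratio than miR-146a-5p and 171 a lower ratio than miR-155-5p. These values are single libraries with no test.

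Other miRNAs known to respond to Toll-like receptor or NF-κB signals in macrophages were taken as a list of 31, of which 28 were tested in each fit. In the Ion Proton run 14 of the 28 were called lower by edgeR and the other 14 did not pass. In that test 8.97% of all features and 13.3% of the mature miRNAs were called lower. The list had a median log2 fold change of -0.36, beside -0.39 over all mature miRNAs tested and 0.08 over all features. With miRNA scaling 4 were called lower, beside 0.986% of all features and 12 of 600 mature miRNAs, and the median was 0.02 beside -0.01. In both runs limma called 8 lower, beside 5.70% of all features and 43 of 443 mature miRNAs, with a median of -0.68 beside -0.45. With miRNA scaling of both runs limma called 0 of the 28, with 3 at an unadjusted p under 0.05. In that last fit 17.8% of all features were called.

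The 6 most abundant of the list were miR-21a-5p, miR-222-3p, miR-181a-5p, miR-27b-3p, let-7e-5p and miR-10a-5p. miR-21a-5p, an anti-inflammatory and growth-related miRNA and the most abundant of the list, had 58154 and 63063 CPM in control cells and 42646 and 49331 CPM after withdrawal, and it did not pass (log2 fold change -0.34, edgeR adjusted p = 0.0813). miR-222-3p, known to repress the cell-cycle inhibitor Cdkn1b, went from 18839 and 17981 to 10743 and 10440 CPM, with a log2 fold change of -0.74 (edgeR adjusted p = 0.00274). The other 4 fell by 0.31 to 0.50 on the log2 scale under all-feature scaling, and of the 6 only miR-222-3p was called with miRNA scaling. miR-125a-5p, miR-125a-3p and miR-223-5p were the other list members called lower under both scalings of the Ion Proton run, and are named here after their values were seen.

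The features with the profile most like each arm were sought among 139 candidates over the 8 libraries, after centring each profile within its run and kind of RNA, by the root mean square (RMS) of the log2 differences. For miR-146b-5p they were miR-223-5p (RMS difference 0.0709), miR-181d-5p (0.140) and miR-351-5p (0.144). miR-223-5p, of a hairpin known for its abundance in myeloid cells, had 153 and 158 CPM in control libraries of the Ion Proton run and 68.5 and 67.9 CPM after withdrawal. For miR-146a-5p they were miR-1839-5p (0.0633), miR-1843a-5p (0.0736) and let-7d-5p (0.0789), and for miR-155-5p miR-3535 (0.0862), miR-324-3p (0.161) and miR-210-3p (0.172). The median RMS difference over all candidates was 0.454 for miR-146b-5p, 0.235 for miR-146a-5p and 0.480 for miR-155-5p. Over the 8 libraries the 5p arms of the miR-146 family were not near each other, with an RMS difference of 0.442. miR-146b-5p was the 123rd nearest of the candidates to miR-146a-5p, and miR-146a-5p the 64th nearest to miR-146b-5p. In the SOLiD total RNA libraries alone, their log2 ratios of withdrawal to control were -1.01 each. These likenesses are descriptions over libraries that share depth and composition shifts.

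Of the hairpin features, Mir155 had 0 and 0 reads in control libraries of the Ion Proton run and 10 and 3 after withdrawal, Mir146 had 31 and 7 against 4 and 8, and Mir146b had 10 and 9 against 1 and 2. In the SOLiD total RNA libraries the level of Mir155 went from 3.29 to 1.97 RPM (19 and 24 reads), that of Mir146 from 13.7 to 4.11 RPM (79 and 50 reads) and that of Mir146b from 1.56 to 1.23 RPM (9 and 15 reads).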

How the data were processed

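Small RNA libraries were analysed from the tables the authors deposited. In the Ion Proton run, adapters were removed by the authors with cutadapt 1.2.1. Reads were aligned to mm10 by Bowtie2 2.2.4 in local mode, with up to 10 places per read, and raw counts per feature were deposited. How reads with several places were counted is not given in the sources used here. For the SOLiD run, the authors mapped with LifeScope and deposited reads per 1000000 counted reads (RPM), from which whole reads were recovered within 0.000596 of a whole number. The labels name small RNA as the Ion Proton extract, where the methods name total RNA. The smallest summed reads of a listed feature were 1 in the Ion Proton and 5 in the SOLiD table.

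Features with 5 or more reads in sum were tested, by edgeR 4.0.16 in the Ion Proton run (TMM factors, quasi-likelihood test), and both runs with limma 3.58.1 on log2 of CPM or RPM plus 1, with run as a term and an intensity trend. The same minimum held in each run. Benjamini-Hochberg adjusted p-values, over every feature in a fit, were called under 0.05. Single ratios were compared by an exact permutation test. Scaling to miRNA reads, DESeq2 1.42.0, filters, pseudocounts, fits without each library and a replicate block were tried as alternatives. R 4.3.3, Python 3.11.15, pandas 2.3.3, numpy 2.4.6, scipy 1.17.1 and matplotlib 3.10.9 were used, and the fits were tested on simulated data. The Ion Proton replicates differed by 23.0 and 22.4 times the counting variance, and were thus kept as separate libraries. The labels do not tell separate cultures or animals apart, so that p-values measure the spread between these libraries only.

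The named features were the 6 arms, the 6 most abundant tested members of the list of inflammatory miRNAs, and the 3 nearest profiles of each 5p arm. The members and lists were chosen with earlier results of these data known. Sequences came from RefSeq and gene positions from GENCODE M21, both GRCm38, the assembly that mm10 names.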

Additional observations from a re-analysis of the deposited data

Results flagged for a closer look

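The treatment by run term of limma for miR-146a-5p was -0.75 on the log2 scale (adjusted p = 0.0214), from changes of -0.26 in the Ion Proton run and -1.01 in the SOLiD total RNA libraries on that scale. Each SOLiD condition had 1 library, so that the residual spread came from the Ion Proton replicates and the p rests on the assumption that SOLiD libraries vary like them. The term was -0.21 (adjusted p = 0.266 by limma) when libraries were scaled to mature miRNA reads. The mature miRNA share fell from 82.0% to 41.1% in the SOLiD libraries and from a mean of 40.6% to 29.7% in the Ion Proton libraries, and its part in the difference was not tested beyond that scaling.

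miR-155-5p moved in opposite directions in the 2 kinds of SOLiD RNA. Its log2 ratio was 0.67 in total RNA and -0.40 in size-selected RNA, with 1 library per condition, so that the difference was not tested. Per 1000000 miRNA reads both ratios were above 0, at 1.67 and 0.56.

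The Mir155 hairpin, listed as a feature of its own, had 10 and 3 reads in the Ion Proton M-CSF withdrawal libraries and 0 in both control libraries. Its sequence includes both mature arms, and whether these reads came from the arms was not tested. In the SOLiD run its level went from 3.29 to 1.97 RPM in total RNA and from 6.62 to 2.23 RPM in size-selected RNA. No group had the 4 libraries that a search for outlying samples needs.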

How the results depend on the processing

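Under the alternatives, 106 values of the 5p arms, their ratios and the counts of calls were taken as unchanged. Tested values had kept their direction and side of the threshold, and untested values had stayed within their error. Counts of calls had stayed within a fixed fold of the main count, whatever their split into higher and lower. Of the others, 28 moved, 4 reversed, 5 gained a call and 5 lost it, and they follow or are given above. With TMM factors over mature miRNAs, the Ion Proton log2 fold change of miR-146a-5p was 0.18 and that of miR-155-5p passed the threshold at 0.60. DESeq2 took miR-146a-5p past it at -0.33 and gave miR-155-5p 0.10 (adjusted p = 0.748). Without 1 Ion Proton library in turn, miR-146a-5p was between -0.40 and -0.11, miR-146b-3p between -1.63 and 5.64 and the ratio of miR-146b arms between -3.98 and 0.72. The fitted 5.64 is set against a control at 0 reads and is no bound.

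For both runs, scaling to miRNA reads gave -0.40 for miR-146b-5p, no longer called, and 0.12 for miR-146a-5p. Without 1 library in turn miR-146b-5p was between -1.08 and -0.98, miR-146a-5p between -0.63 and -0.26 and miR-155-5p between 0.16 and 0.43. Centred on library medians, miR-146b-5p had -1.34, miR-146a-5p -0.82 and miR-155-5p 0.03. By edgeR on whole reads they had -1.33, -0.80 and 0.04. The treatment by run term with miRNA scaling was -0.21 for miR-146a-5p, no longer called, 0.57 for miR-146b-5p and 1.05 for miR-155-5p, both then called. The cause was not tested.

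The calls numbered 500 in the Ion Proton run, 299 and 312 without M-CSF withdrawal replicate 1 or 2, and up to 528 without control replicate 1. In both runs they numbered 295, 81 and 19 without Ion Proton control replicate 1 or 2, 15 and 16 without M-CSF withdrawal replicate 1 or 2, and 564 and 560 without the SOLiD control or M-CSF withdrawal library. The split of Ion Proton calls was 318 higher and 182 lower, 420 and 20 with miRNA scaling and 232 and 238 by DESeq2. In both runs it was 198 and 97, 300 and 2 with miRNA scaling, and 178 and 230 when centred on library medians.

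The samples share replicate numbers, but same-numbered libraries did not deviate together (r = 0.00562 over 852 features). With the replicate block the calls numbered 359 in the Ion Proton run and 29 in both runs, and miR-146b-3p had 0.15. miR-146b-5p was still called, with an adjusted p of 0.0178 by edgeR and 0.0474 by limma. The log2 ratio of the miR-146 5p arms, 0.78, cannot be moved by the block in a balanced design.

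Per 1000000 miRNA reads, the SOLiD log2 ratios of miR-155-5p, miR-146a-5p and miR-146b-5p were 1.67, -0.016 and -0.017 in total RNA and 0.56, 0.090 and -1.29 in size-selected RNA. Centred on the median they were 0.24, -1.45 and -1.45, and -1.32, -1.79 and -3.17. Size-selected over total RNA, per 1000000 miRNA reads, gave 1.38, 1.60 and 1.47 in control cells and 0.27, 1.70 and 0.20 after withdrawal. The Ion Proton control levels were 462, 22409 and 41819 per 1000000 miRNA reads.

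The arm ratio was not run for miR-146b in both runs or at a summed count of 50, where its 3p arm was not included. With 2 libraries per condition, and 1 in the SOLiD run, the precision is limited by the number of libraries and not by the depth of the 5p arms, while the 3p arms are limited by depth.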
